A study of Homo sapiens with 4 samples.

Results

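The genes described here are 10 members of the transforming growth factor beta (TGF-beta) pathway, among 34080 genes matched in the data. The list names them by their role in the pathway and not by their values, but it was chosen with earlier results of these data known. TGFB1, TGFB2, TGFB3 and INHBA encode secreted ligands or ligand subunits, TGFBR1, TGFBR2 and TGFBR3 encode receptors, SMAD3 encodes a signal transducer, and SMAD7 and SKIL encode feedback inhibitors. Their values are estimated RNA-seq reads summed over all Ensembl transcripts of each gene.

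The cells were HK-2, an immortalized human line of renal proximal tubule origin, carrying a Tet-On 3G system in which doxycycline switches on HA-tagged PRCC-TFE3. This chimeric protein joins parts of PRCC to the transcription factor TFE3 and is found in TFE3-rearranged renal cell carcinoma. All 4 libraries came from HK-2 cells engineered in this way, in advanced DMEM/F-12 medium with 1.5% fetal calf serum. Doxy(+) cells received 0.2 microg/ml doxycycline for 24 h whereas Doxy(-) cells received none. Each group had 2 libraries, numbered 1 and 2, and the labels do not say that these were separate cultures or separate engineered lines. The p-values therefore measure only the spread between these libraries, which may be technical. HK-2 cells without the transgene were not analysed here, and doxycycline's own action and that of PRCC-TFE3 cannot be told apart.

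A TGF-beta dimer binds the type II receptor TGFBR2, which recruits and activates the type I receptor TGFBR1, and the co-receptor TGFBR3 (betaglycan) presents ligand, TGF-beta 2 in particular, to this pair. The activated receptors phosphorylate SMAD2 and SMAD3, which join SMAD4, enter the nucleus and act on target genes, while SMAD7 blocks the receptors and SKIL (SnoN) represses SMAD complexes. In renal tubule epithelium the pathway is known for its part in matrix production, loss of epithelial features and fibrosis.

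First, the libraries were checked. They held 14042545 to 16618401 estimated reads in total, of which 12654233 to 15012743 lay on matched genes. Levels are given as CPM, counts scaled to the TMM-adjusted size of the library. Doxy(-) libraries gave 66.9 and 69.0 CPM of TFE3, against 367 and 322 CPM in Doxy(+) libraries, a log2 fold change of 2.34 (edgeR adjusted p = 4.8e-05). When protein-coding transcripts alone were summed, the log2 fold change of TFE3 was 0.09 and did not pass the test (edgeR adjusted p = 0.568). The rise in the summed TFE3 reads thus lay on transcripts without a protein-coding label, which was not followed up. PRCC, summed over all transcripts, did not pass the test, at 50.2 and 47.2 CPM in Doxy(-) and 47.7 and 60.1 CPM in Doxy(+). Of the marker genes of renal epithelium, PAX8, KRT8, KRT18, KRT19 and EPCAM were abundant, whereas PAX2, LRP2 and AQP1 had at most 3 reads in any library and CDH1 stayed between 0.458 and 0.817 CPM. The summed epithelial list of 7 genes was 1954 and 1945 CPM in Doxy(-) and 1693 and 1719 CPM in Doxy(+). Of its 5 tested genes, 3 were called lower (KRT8, KRT18 and KRT19), beside 9.53% of all tested genes. The exons of KRT8 and KRT18 overlap on opposite strands. The part of the lower epithelial sum in the comparisons that follow was not tested. The genes of differentiated proximal tubule summed to 74.5 and 74.7 CPM in Doxy(-) and to 83.3 and 90.3 CPM in Doxy(+), nearly all of it GGT1. Of the 4 tested genes of that list, 1 was called higher, beside 9.76% of all tested genes. Leukocyte markers summed to at most 0.740 CPM and endothelial markers to at most 0.607 CPM, and the fibroblast list, at 163 to 187 CPM, consisted almost wholly of LUM.

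Next, the 10 genes were compared between Doxy(+) and Doxy(-) in an edgeR quasi-likelihood fit of 13569 genes. In Doxy(+), 5 of the 10 genes fell, namely TGFB2, INHBA, TGFBR2, SMAD3 and SKIL. TGFBR3 rose, and TGFB1, TGFB3, TGFBR1 and SMAD7 did not pass an adjusted p of 0.05. Of all tested genes, 9.53% were called lower and 9.76% were called higher. TGFB2 and INHBA also passed the study's second limit, a log2 fold change under -1, which 0.479% of the tested genes did together with the first. The median log2 fold change of the 10 genes was -0.36, beside 0.000616 over all tested genes, and 9 of the 10 estimates were negative. The library values of Doxy(-) and Doxy(+) did not overlap for 9 of the 10 genes, TGFB1 being the exception, but the same held for 61.1% of all tested genes. These are levels in bulk RNA, in which fewer cells of a type and less RNA per cell cannot be told apart.

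**Figure D1:**
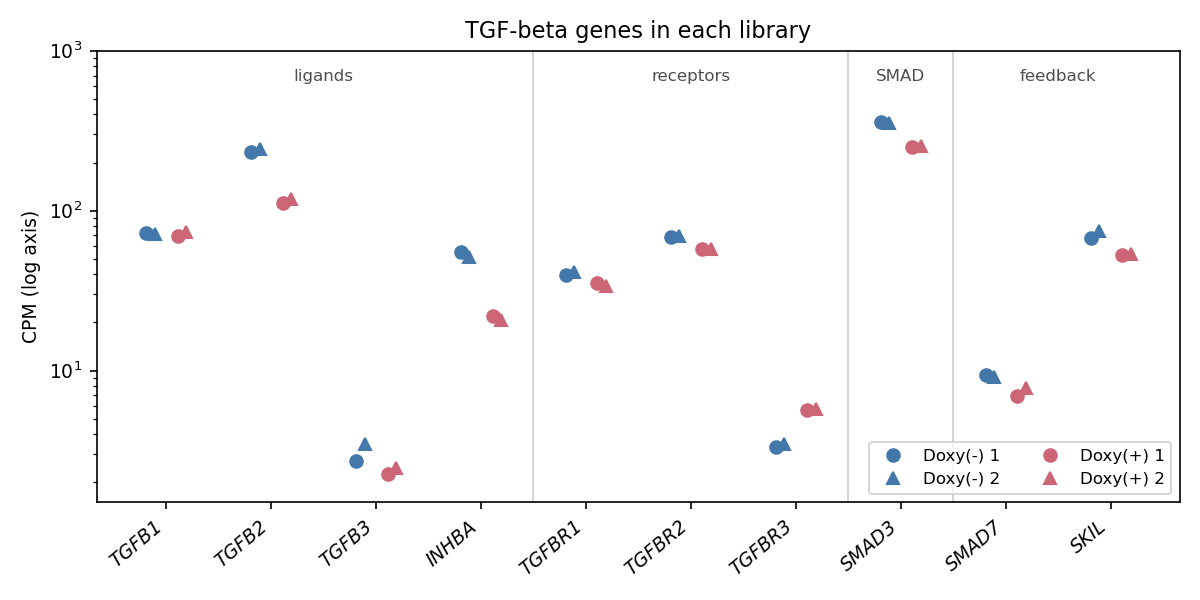
CPM of the 10 genes in each library, on a log axis, with circles for libraries numbered 1 and triangles for libraries numbered 2. TGFB2 and INHBA show the widest gaps between Doxy(-) and Doxy(+), TGFBR3 is the gene with higher Doxy(+) values in both libraries, and the TGFB1 points overlap.

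The genes spanned a broad range of expression. By mean CPM over the 4 libraries, SMAD3 exceeded 96.4% of the tested genes and TGFB2 exceeded 92.3%. TGFB1, TGFBR2 and SKIL exceeded 77.1%, 74.2% and 73.6%, and TGFBR1 and INHBA exceeded 59.6% and 59.4%. SMAD7, TGFBR3 and TGFB3 were scarce, above only 26.2%, 18.4% and 13.4% of the tested genes, which limits the precision of their comparisons.

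To show the DNA in front of these genes, 250 bases upstream of each RefSeq transcript start were read from a RefSeq promoter table (GRCh38.p14), which held 25 windows for the 10 genes. The letters CACGTG (an E-box of the kind bound by TFE3 and its relatives), CAGAC (a SMAD-binding element) and TGANTCA (an AP-1 site) were searched on both strands. For 5 genes the first window in the table is given here 5′ to 3′ on the gene's strand, matches in capitals: those of the 2 ligand genes that fell past both limits, of TGFB1 for contrast, and of the 2 other genes with CACGTG.
TGFB2 (chr1:218345086-218345335, plus strand): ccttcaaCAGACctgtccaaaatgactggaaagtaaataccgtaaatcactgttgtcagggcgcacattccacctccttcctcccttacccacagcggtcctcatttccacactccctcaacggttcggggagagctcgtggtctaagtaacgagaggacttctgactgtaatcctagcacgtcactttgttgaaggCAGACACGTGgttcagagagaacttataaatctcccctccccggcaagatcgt
INHBA (chr7:41703091-41703340, minus strand): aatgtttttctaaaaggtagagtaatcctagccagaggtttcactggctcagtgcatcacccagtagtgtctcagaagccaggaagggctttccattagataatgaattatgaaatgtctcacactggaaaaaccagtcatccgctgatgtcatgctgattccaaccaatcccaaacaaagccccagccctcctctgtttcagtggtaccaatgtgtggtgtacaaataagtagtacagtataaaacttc
TGFB1 (chr19:41353923-41354172, minus strand): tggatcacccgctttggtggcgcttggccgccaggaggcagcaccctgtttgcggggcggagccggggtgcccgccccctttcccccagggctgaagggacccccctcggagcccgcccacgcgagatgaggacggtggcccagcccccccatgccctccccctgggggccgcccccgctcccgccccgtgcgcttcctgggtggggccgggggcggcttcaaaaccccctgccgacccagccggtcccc
TGFB3 (chr14:75983012-75983261, minus strand): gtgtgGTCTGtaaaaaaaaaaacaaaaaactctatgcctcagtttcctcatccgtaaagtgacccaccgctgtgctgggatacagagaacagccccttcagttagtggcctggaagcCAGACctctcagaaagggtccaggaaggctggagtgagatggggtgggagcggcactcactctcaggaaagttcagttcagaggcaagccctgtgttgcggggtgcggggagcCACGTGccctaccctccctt
SMAD3 (chr15:67065352-67065601, plus strand): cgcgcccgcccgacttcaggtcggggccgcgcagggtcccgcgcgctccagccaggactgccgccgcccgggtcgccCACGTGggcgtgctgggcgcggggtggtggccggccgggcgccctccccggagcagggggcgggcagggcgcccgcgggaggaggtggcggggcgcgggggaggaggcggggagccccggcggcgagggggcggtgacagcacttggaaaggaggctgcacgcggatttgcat

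Counting from -1 at the base before the transcript start, CACGTG began at position -49 in TGFB2, -20 in TGFB3 and -173 in SMAD3. These were 3 of the 25 windows, and 6.34% of the 35116 windows in the table held these letters. In TGFB2 the CAGAC at -53 and the CACGTG at -49 shared a base, so the capitals run together, and another CAGAC began at -243. CAGAC occurred in 11 windows of 6 of the genes and in 38.0% of all windows, and TGANTCA in 1 window, a SMAD3 window that is not printed, and in 6.57% of all windows. The INHBA and TGFB1 windows, the only ones of these genes, held none of the 3 motifs. The TGFB2 window overlapped exons of TGFB2-AS1, and the TGFB1 window an exon of TMEM91, both on the opposite strand. The printed INHBA and SMAD3 windows lie inside the GENCODE span of their gene, outside annotated exons, whereas the 4 further SMAD3 windows overlap SMAD3 exons. A match is a description of the letters, and binding was not measured in these data.

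Among the ligands, TGFB2 had the most reads. TGFB2 (ENSG00000092969.12, hg38 chromosome 1, 218345336 to 218444619) encodes TGF-beta 2. Its values were 231 and 245 CPM in Doxy(-) and 111 and 118 CPM in Doxy(+), or 2978, 3595, 1432 and 1580 estimated reads. Both Doxy(+) libraries were below both Doxy(-) libraries by far more than the libraries of a group differed. The mean fell from 238 ± 9.62 to 114 ± 4.57 CPM (SD, n = 2 libraries each), that is 2.08-fold. The log2 fold change was -1.06 (95% interval -1.17 to -0.94, edgeR adjusted p = 0.000173). Over 16 other settings of the fit it ranged from -1.10 to -0.98, with an adjusted p of at most 0.00811.

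INHBA (ENSG00000122641.11, chromosome 7, 41667168 to 41705834) encodes the beta A subunit of activin A and of inhibin A. Activin A signals through its own receptors to the same SMAD2 and SMAD3. The INHBA values were 55.0 and 51.0 CPM without doxycycline, and 22.1 and 20.8 CPM with it, so the groups did not overlap. Its mean fell 2.47-fold, from 53.0 ± 2.85 to 21.4 ± 0.903 CPM (SD, n = 2 each). The log2 fold change of -1.31 (95% interval -1.48 to -1.13, edgeR adjusted p = 0.000265) was the most negative of the 10 genes. It kept its call in each of 16 other settings, between -1.36 and -1.16.

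TGFB1 (ENSG00000105329.11, chromosome 19, 41301587 to 41353922) encodes TGF-beta 1. It showed 72.9 and 71.6 CPM in Doxy(-) and 69.6 and 73.2 CPM in Doxy(+), so the groups overlapped. Its log2 fold change was -0.02, with a 95% interval of -0.15 to 0.11 (edgeR adjusted p = 0.862). The exons of TGFB1 overlap those of HNRNPUL1 on the opposite strand. The study's methods name a stranded library kit, but whether the quantification used strand is not given in the sources used here. TGFB3 (ENSG00000119699.8, chromosome 14, 75958097 to 75983011), the gene of TGF-beta 3, had 35, 51, 29 and 33 estimated reads in Doxy(-) 1, Doxy(-) 2, Doxy(+) 1 and Doxy(+) 2. At 2.72, 3.47, 2.25 and 2.46 CPM, its log2 fold change was -0.39 with a wide 95% interval of -1.04 to 0.25 (edgeR adjusted p = 0.354), so at this depth no difference could be detected.

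**Figure D2:**
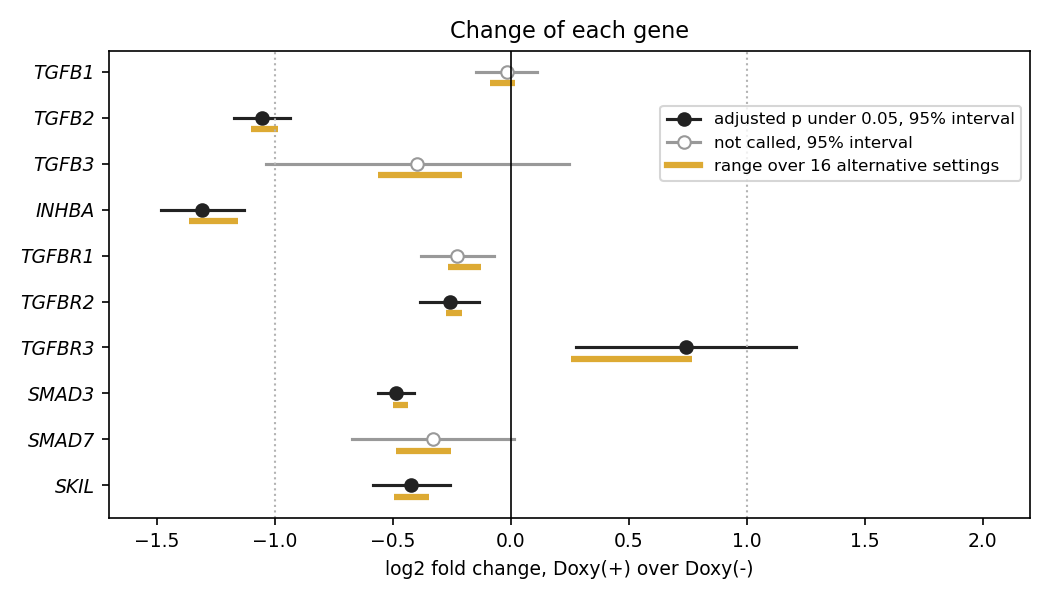
Log2 fold change of each gene, Doxy(+) over Doxy(-), with its 95% interval (thin line) and the range of the estimate over 16 alternative settings (thick line), dotted lines marking -1 and 1. TGFB2 and INHBA lie near or beyond -1, and the TGFBR3 range reaches down to 0.26.

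Levels of different ligands can be compared per transcript length, as TPM, a read share divided by length. TGFB2 stood at 136 and 125 TPM in Doxy(-) and at 67.9 and 62.8 TPM in Doxy(+), whereas TGFB1 stayed between 46.4 and 50.2 TPM. The TPM ratio of TGFB2 to TGFB1 was close to 2.7 in both Doxy(-) libraries, against 1.46 and 1.33 in Doxy(+). Of the summed TPM of TGFB1, TGFB2 and TGFB3, TGFB2 made up 71.8% and 71.6% in Doxy(-) and 58.1% and 55.9% in Doxy(+). Which gene held the larger share depended on the transcripts counted. With protein-coding transcripts alone, TGFB2 made up 50.5% and 52.9% in Doxy(-) but 34.7% and 36.1% in Doxy(+), where TGFB1 made up 61.9% and 60.8%. The gap between the scales lay in the transcripts TGFB2-203 and TGFB2-204, of 1508 and 405 bases, which have no defined coding sequence. TGFB2-203 had 62.2 and 50.0 TPM in Doxy(-) and 26.7 and 28.8 TPM in Doxy(+), and TGFB2-204 had 25.3 and 19.2 TPM against 16.3 and 7.33 TPM.

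**Figure D3:**
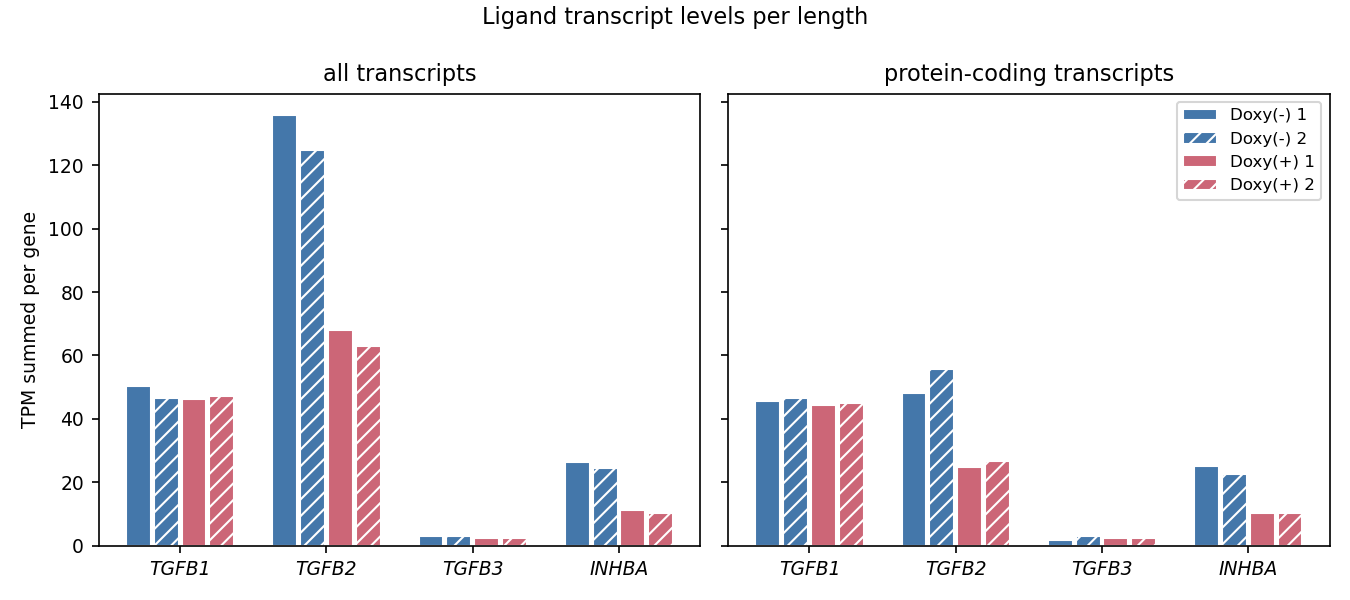
Summed TPM of the 4 ligand genes in each library, over all transcripts (left) and over protein-coding transcripts (right), from 0. On the left TGFB2 is above TGFB1 in all 4 libraries, and on the right it is above TGFB1 in Doxy(-) and below it in Doxy(+).

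The lower TGFB2 and INHBA values were spread over their transcripts. TGFB2-202, which held 60.1% to 68.6% of the reads of the gene, went from 1790 and 2428 estimated reads without doxycycline to 983 and 1040 with it. TGFB2-203 had 788 and 727 in Doxy(-) against 329 and 371 in Doxy(+), and TGFB2-201 had 330 and 380 against 77.0 and 149. INHBA-201 went from 458 and 470 estimated reads to 173 and 177, and INHBA-203 had 230 and 238 against 94.8 and 96.7. Both Doxy(+) values were below both Doxy(-) values for each of these transcripts. The transcript values are a division of shared reads by the quantifier that was not scaled for depth, and they were not tested one by one.

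**Figure D4:**
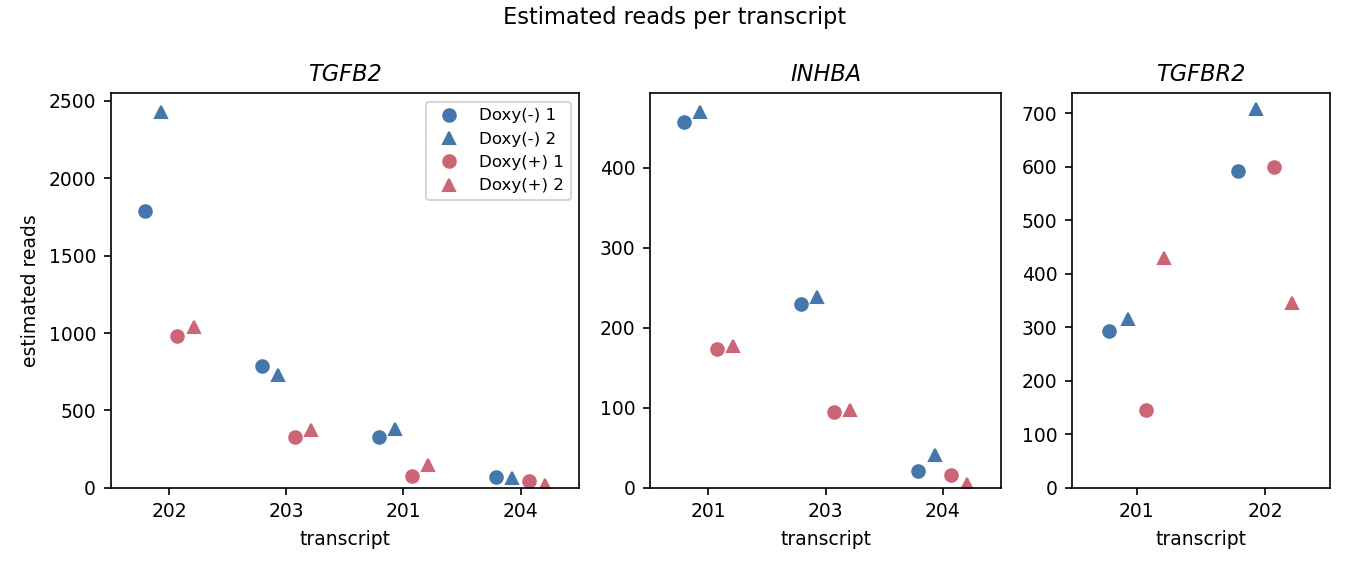
Estimated reads per transcript of TGFB2, INHBA and TGFBR2 in each library, with one vertical scale per gene starting at 0. Every TGFB2 and INHBA transcript drawn is lower in both Doxy(+) libraries than in both Doxy(-) libraries, whereas the TGFBR2 transcripts are split differently in the 2 Doxy(+) libraries.

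Next, the receptors were examined. TGFBR2 (ENSG00000163513.19, chromosome 3, 30606601 to 30694142), the type II receptor gene, showed 68.7 and 69.7 CPM in Doxy(-) and 57.9 and 57.7 CPM in Doxy(+). It fell 1.20-fold, or by 0.26 on the log2 scale (95% interval -0.38 to -0.13, edgeR adjusted p = 0.0186). The call was lost in 5 of 16 other settings, which were the fits without Doxy(+) 1 (edgeR adjusted p = 0.114) and without Doxy(+) 2 (edgeR adjusted p = 0.115), length-scaled counts (edgeR adjusted p = 0.0974) and limma on TPM (adjusted p 0.251 and 0.242 with pseudocounts of 1 and 0.1). The estimates in all 16 lay between -0.27 and -0.20. The sum over the gene was steadier than its transcripts. TGFBR2-201 held 19.6% of the reads of the gene in Doxy(+) 1 and 55.4% in Doxy(+) 2, against 33.1% and 30.8% in Doxy(-).

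TGFBR1 (ENSG00000106799.14, chromosome 9, 99104038 to 99154192), the type I receptor gene, had 39.7 and 41.0 CPM in Doxy(-) and 35.5 and 33.6 CPM in Doxy(+), without overlap. The log2 fold change of TGFBR1 was -0.23 with a 95% interval of -0.38 to -0.07, and it did not pass after adjustment over all genes (edgeR adjusted p = 0.0576, range 0.0554 to 0.560 over 16 settings). TGFBR1 and TGFBR2 thus had estimates within 1 SE of each other, on either side of the threshold.

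TGFBR3 (ENSG00000069702.11, chromosome 1, 91680343 to 91906335), the betaglycan gene, was the only one of the 10 genes to rise. Its reads were few, 43.1 and 51.0 without doxycycline and 73.0 and 76.7 with it, or 3.34, 3.47, 5.67 and 5.72 CPM. The mean was 1.67-fold higher, with a log2 fold change of 0.74 (95% interval 0.28 to 1.21, edgeR adjusted p = 0.0436). This call did not hold in 11 of 16 other settings, among them the removal of any single library (adjusted p 0.0859 without Doxy(-) 2, 0.110 without Doxy(-) 1, 0.163 without Doxy(+) 2 and 0.166 without Doxy(+) 1, all edgeR). The estimate was 0.48 with protein-coding transcripts alone and 0.34 with counts scaled for transcript length. In TPM the values were 1.21 and 1.84 in Doxy(-) and 2.10 and 1.89 in Doxy(+), a narrower gap than in CPM.

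Among the transducers and inhibitors, SMAD3 was the most abundant. SMAD3 (ENSG00000166949.17, chromosome 15, 67063763 to 67195173) showed 357 and 351 CPM in Doxy(-) and 251 and 255 CPM in Doxy(+). The libraries of a group differed little, and the mean fell 1.40-fold, from 354 ± 4.68 to 253 ± 2.61 CPM (SD, n = 2 each). The log2 fold change was -0.49 (95% interval -0.56 to -0.41, edgeR adjusted p = 0.000432) and stayed between -0.50 and -0.44 in 16 other settings, called in each. A single transcript, SMAD3-201, held 88.9% to 90.9% of its reads. SMAD2, whose protein is phosphorylated by the same receptors, had 57.1 and 58.4 CPM in Doxy(-) and 60.1 and 60.0 CPM in Doxy(+) (log2 fold change 0.06, edgeR adjusted p = 0.520, the sign turning to -0.075 with length-scaled counts and to -0.036 with limma on log2(TPM + 1)). The TPM ratio of SMAD3 to SMAD2 was 2.65 and 2.77 without doxycycline, against 2.02 and 2.08 with it.

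SKIL (ENSG00000136603.15, chromosome 3, 170357342 to 170396835) had 67.7 and 74.9 CPM in Doxy(-) and 52.9 and 53.7 CPM in Doxy(+). It fell 1.34-fold, or by 0.42 on the log2 scale (95% interval -0.58 to -0.26, edgeR adjusted p = 0.00849). The call was lost in 4 of 16 settings, including the fit without Doxy(+) 1 (edgeR adjusted p = 0.0578), with estimates between -0.49 and -0.35. SMAD7 (ENSG00000101665.10, chromosome 18, 48919853 to 48950965), the inhibitory SMAD, had 9.31 and 9.12 CPM in Doxy(-) and 6.91 and 7.75 CPM in Doxy(+), the lower values again being those of Doxy(+). The SMAD7 log2 fold change of -0.33 had a 95% interval of -0.67 to 0.01 (edgeR adjusted p = 0.165). SMAD7-202, a transcript with a retained intron, held between 28.7% and 60.4% of the SMAD7 reads, and in TPM the groups overlapped, at 6.07 and 8.50 in Doxy(-) and 4.58 and 7.25 in Doxy(+).

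The order of the 10 genes by TPM summed over all transcripts also differed between the groups. In both Doxy(-) libraries it ran TGFB2, SMAD3, TGFB1, SKIL, INHBA, TGFBR2, TGFBR1, SMAD7, TGFB3 and TGFBR3. In both Doxy(+) libraries SMAD3, at 86.1 and 88.4 TPM, was above TGFB2, and INHBA, at 11.2 and 10.4 TPM, was below TGFBR2 and TGFBR1. In Doxy(-) INHBA, at 26.2 and 24.4 TPM, was above TGFBR2, at 21.8 and 22.0 TPM. TGFB2 and SMAD3 were close neighbours in Doxy(-), since SMAD3 reached 121 TPM and TGFB2 went down to 125 TPM. Their order depended on the transcripts counted, since SMAD3-201 alone had 75.7 and 72.2 TPM in Doxy(-), above the 48.3 and 55.7 TPM of the protein-coding TGFB2 transcripts.

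Finally, the other genes of the pathway were examined in 8 lists by role, which held 86 genes, 60 of them tested. Of these, 20 were lower and 8 were higher in Doxy(+), with a median log2 fold change of -0.04, beside 9.53% lower and 9.76% higher among all tested genes. The other 26 had at most 11 reads in any library, and 13 of them had fewer than 3 reads in every library. The lists differed in their counts.

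Genes listed under latent TGF-beta storage and activation were called in 5 of 10 cases, all lower, with a median of -0.24. The share called lower among all tested genes was 9.53%. THBS1, which encodes thrombospondin 1, an activator of latent TGF-beta, fell from 139.5 and 135.8 CPM to 35.4 and 34.7 CPM (log2 fold change -1.98, edgeR adjusted p = 3.3e-05). ITGB8, a subunit of the integrin that activates latent TGF-beta, fell from 123 and 129 CPM to 56.5 and 61.1 CPM (-1.10, edgeR adjusted p = 0.000237). LTBP2, a matrix protein listed here for its family, the latent TGF-beta binding proteins, fell from 133 and 134 CPM to 68.9 and 74.1 CPM (-0.90, edgeR adjusted p = 0.000307). The other called genes, named after their values were seen, were ITGB6, at 12.0, 15.3, 6.43 and 4.20 CPM, and ITGAV, whose log2 fold change was -0.19. LTBP4, also named afterwards, was uneven within Doxy(+), at 54.2 and 184 CPM, beside 139.8 and 132.8 CPM in Doxy(-).

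TGF-beta response genes, which respond to other signals as well, held 12 lower genes and 1 higher gene of 19 tested, with a median of -0.35. The shares to set beside these counts are 9.53% lower and 9.76% higher among all tested genes. TGFBI, a secreted matrix protein, fell from 553 and 538 CPM to 360 and 371 CPM (log2 fold change -0.58, edgeR adjusted p = 0.000272). THBS1, described above, belongs to this list too. The higher gene, named after its values were seen, was CDKN1A, which encodes the cell cycle inhibitor p21, at 119.7 and 110.2 CPM in Doxy(-) and 232 and 219 CPM in Doxy(+) (log2 fold change 0.97, edgeR adjusted p = 0.000283).

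Other ligands of the superfamily were mostly untested, 8 of 12, and all 4 tested genes were called. They were 1 lower and 3 higher, beside 9.53% lower and 9.76% higher among all tested genes. GDF15, a stress-induced cytokine, rose from 183 and 169 CPM to 305 and 319 CPM (log2 fold change 0.83, edgeR adjusted p = 0.000333). GDF11 rose by 0.36 on the log2 scale (edgeR adjusted p = 0.0203), its exons overlapping those of SARNP on the opposite strand, and INHBE, a further activin subunit gene named after its values were seen, rose by 0.26. BMP2, a bone morphogenetic protein, fell from 21.8 and 21.1 CPM to 14.5 and 16.4 CPM (-0.47, edgeR adjusted p = 0.0244). The BMP2 call was lost in 7 of 16 other settings, including the fits without Doxy(-) 1 (edgeR adjusted p = 0.0638) and without Doxy(+) 1 (0.117), and that of GDF11 in 5 of 16, including the fit without Doxy(+) 2 (edgeR adjusted p = 0.129).

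For the remaining receptors and SMADs, the shares to set beside the calls are again 9.53% lower and 9.76% higher among all tested genes. Of 9 tested receptors, 2 were higher: ACVR1B, the activin type I receptor gene, at 42.5, 41.6, 49.9 and 50.7 CPM (log2 fold change 0.26, edgeR adjusted p = 0.0233), and ACVRL1, at 7.47, 7.92, 11.2 and 11.0 CPM (0.54, edgeR adjusted p = 0.0330). The ACVR1B call was lost in 8 of 16 other settings, including DESeq2 (adjusted p = 0.0712) and the fits without Doxy(-) 2, Doxy(+) 1 or Doxy(+) 2 (edgeR adjusted p 0.0617 to 0.142). The ACVRL1 call was lost in 11 of 16, including DESeq2 (adjusted p = 0.113) and the removal of any single library (edgeR adjusted p 0.0556 to 0.145). ACVR2A, whose exons overlap those of ORC4 on the opposite strand, had an estimate of 0.59 and did not pass (edgeR adjusted p = 0.0590). The 4 other SMAD genes tested did not pass in the reported edgeR fit of all 4 libraries, where the lowest unadjusted p was 0.332. DESeq2 gave SMAD2, SMAD4 and SMAD5 adjusted p-values of 0.818 or more. SMAD4, the common partner, had an estimate of 0.03 (edgeR adjusted p = 0.833, between -0.084 and 0.16 with a library left out). SMAD5 stood at 21.5, 21.7 and 22.7 CPM in 3 libraries but at 2.57 CPM in Doxy(+) 1, and its estimate was 0.072 without that library and -3.07 without Doxy(+) 2.

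Intracellular inhibitors gave 1 lower and 1 higher gene of 10 tested, near the 9.53% lower and 9.76% higher among all tested genes. PMEPA1, a TGF-beta-inducible inhibitor of SMAD signaling, fell from 75.2 and 81.8 CPM to 43.0 and 41.6 CPM (log2 fold change -0.89, edgeR adjusted p = 0.000596). NEDD4L, a ubiquitin ligase that targets activated SMAD2 and SMAD3, rose from 256 and 270 CPM to 365 and 359 CPM (0.46, edgeR adjusted p = 0.000846). STRAP, an adaptor that works with SMAD7, had an estimate of -0.18 (edgeR adjusted p = 0.0748). Of the secreted antagonists 2 of 9 were tested, and FSTL3, which binds activin, fell by 0.27 on the log2 scale (edgeR adjusted p = 0.0161), a call lost in 5 of 16 other settings, including the fit without Doxy(+) 1 (edgeR adjusted p = 0.119). The BMP-responsive ID genes went in different directions, with ID1 at -0.42 (edgeR adjusted p = 0.0278), ID2 at 0.77 (edgeR adjusted p = 0.0301) and ID3, not called, at 0.34. The calls of ID1 and ID2 were each lost in 10 of 16 other settings, including DESeq2 and the removal of any single library (adjusted p at most 0.112 for ID1 and 0.245 for ID2).

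**Figure D5:**
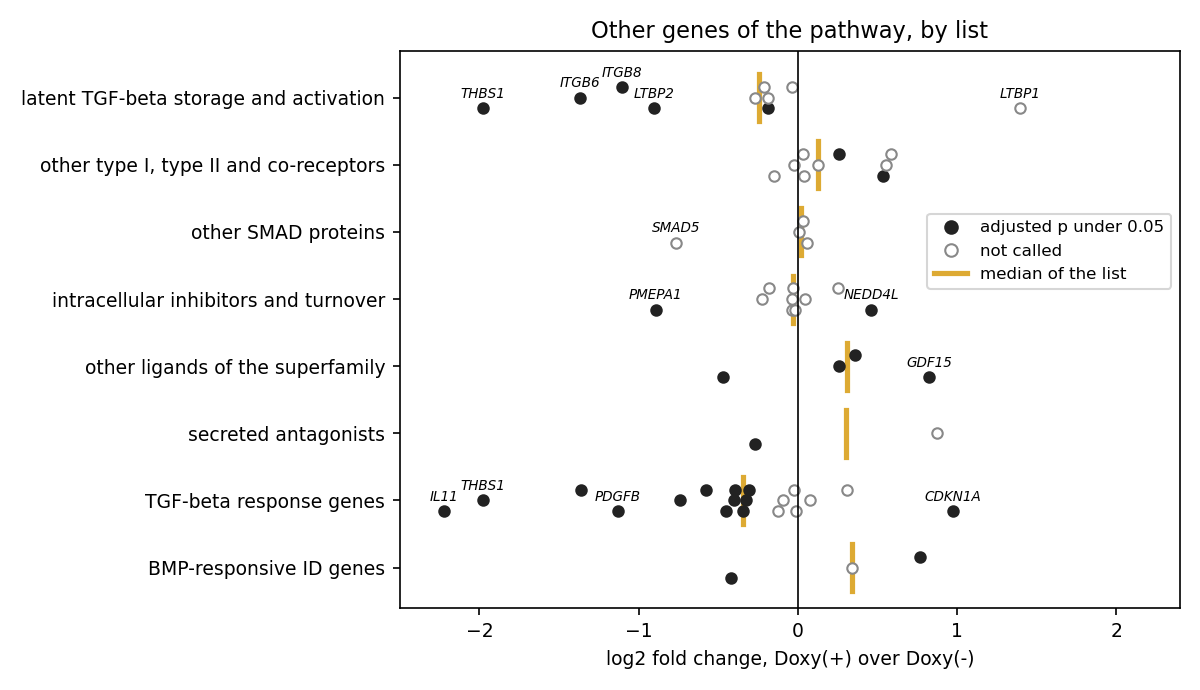
Log2 fold change, Doxy(+) over Doxy(-), of the tested genes of each pathway list, with filled points for genes called at an adjusted p of 0.05, open points for the rest and a bar at each list's median. The medians of the response genes (-0.35), the latent TGF-beta list (-0.24) and the intracellular inhibitors (-0.03) are negative. Those of the ID genes (0.34), other ligands (0.31), secreted antagonists (0.30), other receptors (0.13) and other SMADs (0.02) are positive. The ID, ligand and antagonist medians rest on 3, 4 and 2 tested genes.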

How the data were processed

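HK-2 libraries, 2 of Doxy(-) and 2 of Doxy(+), were compared. Per the study's methods, libraries were made with a TruSeq Stranded mRNA kit and reads were single-end. They were trimmed with Trim Galore 0.6.6 and cutadapt 2.5, aligned to UCSC hg38 with STAR 2.7.9a and quantified with RSEM. The tables deposited by the authors instead have the column layout of kallisto over 180253 Ensembl transcripts, and the Ensembl release and use of strand are not given in the sources used here. They hold the authors' estimated counts, not normalized and not whole, and the authors' TPM values, scaled by length and to the same total in each library.

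Transcripts were matched to genes through GENCODE release 44 on hg38 (150691 matched), and estimated counts were summed per gene. The 29562 unmatched transcripts carried 9.66% to 9.89% of the reads and stayed out. Sums were rounded and tested with edgeR 4.0.16 (R 4.3.3), glmQLFit and glmQLFTest, after filterByExpr and TMM scaling, with group as the only term and Benjamini-Hochberg adjustment over 13569 genes. The common biological coefficient of variation was 6.53%. Calls required an adjusted p under 0.05, and the study's log2 limit of 1 was applied beside it. The scripts were tested on simulated counts. With 2 libraries against 2 an exact permutation test cannot go below 1 in 3 and was not run. A count of 3 reads was 0.204 to 0.233 CPM. The reads carry no molecular identifiers, so such limits cover counting error only. All 10 members, TFE3, PRCC and the 3 genes of smallest p in each list are named, apart from some that are not reported here, and others are marked. The members and lists were chosen with earlier results of these data known. The alternatives used DESeq2 1.42.0, limma 3.58.1 and other settings.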

Additional observations from a re-analysis of the deposited data

How the results depend on the processing

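TGFB2, INHBA and SMAD3 kept their direction and their call in all 16 other settings of the fit. Of 544 results over 34 named genes and 16 settings, 450 kept direction and side of the threshold, 77 lost a call, 4 gained one and 13 turned sign, none of these 13 being called in the reported fit. The 5 members lower became 3 with length-scaled counts and with limma on log2(TPM + 1) or log2(TPM + 0.1), and 2 with the fold limit added. The 1 member higher became 0 with the replicate block, unmatched transcripts tested beside the genes, length-scaled counts, protein-coding transcripts only, DESeq2, limma at either pseudocount, an adjusted p under 0.01 or the fold limit. With a library left out, 3 to 5 members were lower and 0 to 0 higher. The 20 pathway genes lower became 13 with unmatched transcripts, length-scaled counts or an adjusted p under 0.01, 12 with limma at either pseudocount and 6 with the fold limit, and 14 to 19 with a library left out. The 8 higher became 3 with unmatched transcripts, limma at either pseudocount or an adjusted p under 0.01, 4 with length-scaled counts, protein-coding transcripts or DESeq2, 0 with the fold limit, and 3 to 5 with a library left out. Calls over all tested genes fell as well. Those lower went from 1293 to 577 with length-scaled counts, 334 and 324 with limma, and 704 with unmatched transcripts. Those higher went from 1325 to 675, 642 and 624, and 737 in the same order. They were 816 with protein-coding transcripts and 1076 with DESeq2. The cause of these changes in the counts was not tested, except that the stricter limits pass fewer genes by construction.

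Estimates that turned sign with a library left out ranged from -0.055 to 0.018 for TGFB1, -0.029 to 0.30 for PRCC, -3.07 to 0.072 for SMAD5 and -0.084 to 0.16 for SMAD4. With length-scaled counts and with limma at either pseudocount they were -0.18, -0.15 and -0.15 for PRCC, -0.075, -0.036 and -0.037 for SMAD2, and -0.14, -0.097 and -0.099 for SMAD4. The libraries share replicate numbers that the labels do not explain, and the correlation of the deviations of same-numbered libraries was -0.015 over 13569 genes, so they were not treated as pairs. With the replicate block, 5 members were lower and 0 higher, TGFBR3 then having an edgeR adjusted p of 0.0630, and 21 pathway genes were lower and 8 higher. Depth limits TGFB3, TGFBR3 and SMAD7, the 3 scarcest members.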
